A study of Mus musculus with 3 samples.

Results

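The genes described here encode the machinery of homologous recombination, the Fanconi pathway and mismatch repair, as measured by RNA-seq in mouse bone marrow pre-B cells. The 36 genes were listed by name, not by their values, and each was found by its Entrez identifier among the 26286 genes of the count table. There were 3 libraries of 1 group, replicates 1, 2 and 3, and the labels set no other condition beside it. The mice were bitransgenic for CAG-rtTA3, a doxycycline-responsive transactivator under the CAG promoter, and TRE-GFP-shLuc.1309, an inducible cassette that couples GFP to a control short hairpin RNA. All received doxycycline for 3 days, so every library carries the hairpin and the drug, and the cells were sorted as GFP+, B220+, CD25+, IgM- and Kit-.

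Homologous recombination copies the sister chromatid to mend a broken or stalled replication fork, and so works mainly in S and G2 phase. The Fanconi pathway recognises crosslinked DNA at a fork, marks the site with ubiquitin and hands it to the same recombination proteins. Mismatch repair removes bases that the replicative polymerase paired wrongly. Pre-B cells divide in a burst after heavy chain rearrangement and then stop dividing to rearrange the light chain with the Rag recombinase and end joining, which does not need a sister copy.

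Total counts were between 12021576 and 32086649, a 2.67-fold range with replicate 3 the deepest. All 14 pre-B markers exceeded 1 RPKM (reads per kilobase of gene length, scaled to library size) in every library, while the T and NK markers summed to between 5.46 and 6.17 RPKM and the erythroid markers to between 7.47 and 8.60 RPKM. Neutrophil markers were present in all libraries, all 12 of them above 1 RPKM, and summed to 1367, 1646 and 2423 RPKM in replicates 1, 2 and 3. Of 8 monocyte and macrophage markers 6 were above 1 RPKM in every library, and the 8 summed to 190, 222 and 270 RPKM. Replicate 1 stood apart in sex-linked RNA, with 22609 counts of Xist against 94 and 70, and 2 counts over 4 Y-linked genes against 5152 and 12547. By these counts replicate 1 is female and replicates 2 and 3 are male, so replicate 1 did not share an animal with them. The labels do not say whether replicates 2 and 3 came from separate animals. P-values of the contrast of replicate 3 given below set its difference against the spread between replicates 1 and 2. That spread may be technical in part. The chi-square p-values given below set counts against counting noise only. Replicate 3 is also the only library processed with CASAVA 1.8.0, the others having 1.8.2.

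All 36 repair genes were expressed. Each exceeded 2 RPKM in every library, and their mean levels ran from 2.98 to 49.4 RPKM with a median of 11.1 RPKM. The same median was 5.46 RPKM for the 17423 genes with any count and 13.2 RPKM for the 12147 genes that passed the filter on low counts, which all 36 members did. Of the 36, 28 lay above the median of genes with a count, and 89.6% of those genes lay below the highest member. The members shared between 0.161% and 0.195% of all counts. Counts per member and library ran from 71 to 6662, so that counting error, shown as 95% exact Poisson intervals in the plot of levels, is widest for Fancf, Xrcc2 and Fancb.

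**Figure D1:**
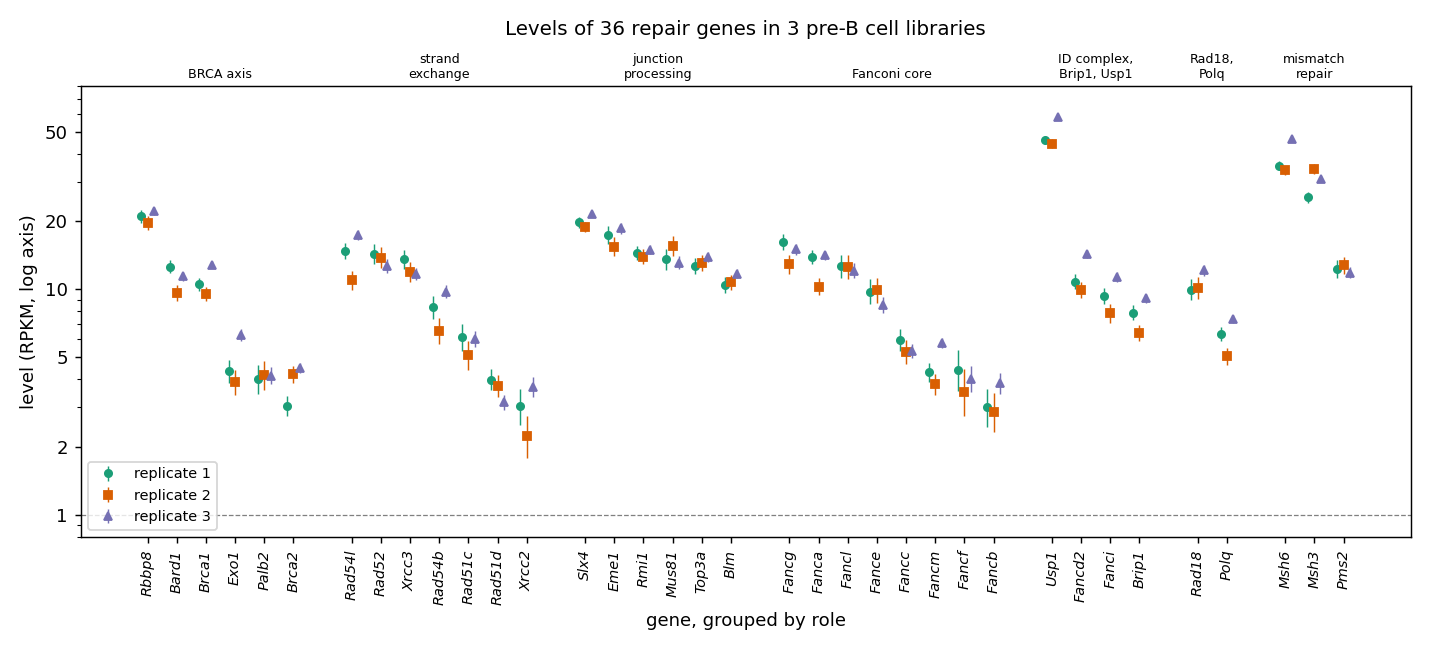
Level of each of the 36 genes in RPKM on a log axis, grouped by role; symbols are the 3 libraries and bars are 95% exact Poisson intervals of the count, which cover counting error only. All points lie above the dashed line at 1 RPKM, and Usp1, Msh6 and Msh3 stand highest.

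The BRCA1 and BRCA2 axis begins recombination. Rbbp8, the gene of CtIP, which starts the trimming of a broken end, led this set at 21.1, 19.7 and 22.3 RPKM in replicates 1, 2 and 3. The ubiquitin ligase pair Brca1 and Bard1 had near-equal means, at 11 ± 1.69 and 11.2 ± 1.48 RPKM (SD, n = 3). Their libraries were not in the same order. Brca1 stood at 10.6, 9.56 and 12.9 RPKM, highest in replicate 3, whereas Bard1 stood at 12.6, 9.65 and 11.4 RPKM, highest in replicate 1.

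Brca2, a central mediator of recombination, was lower, at 3.05, 4.20 and 4.47 RPKM. Replicate 1 was its low library. Palb2, the bridge between BRCA1 and BRCA2, had 4.0, 4.16 and 4.15 RPKM, and was the steadiest of all members with a highest library 1.04-fold above the lowest. Exo1, the exonuclease of long-range resection that also serves mismatch repair, had 4.34, 3.88 and 6.28 RPKM. Its level in replicate 3 was 1.62-fold that in replicate 2.

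Within each library Brca1 exceeded Brca2, by 1.64, 1.10 and 1.43 on the log2(RPKM + 0.5) scale in replicates 1, 2 and 3. The mean difference was 1.39 ± 0.27 (SD, n = 3), or 2.62-fold, with an exact sign-flip p of 0.25 (two-sided). That is the smallest p that 3 libraries allow, so none of the 9 planned differences between related genes could pass 0.05, and their size, SD and sign are given instead.

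The strand exchange set holds Xrcc2, Xrcc3, Rad51c and Rad51d, which assist the pairing of a broken end with its template, and Rad52, Rad54l and Rad54b. Xrcc3 led the first 4 at 13.6, 12 and 11.7 RPKM, followed by Rad51c at 6.13, 5.11 and 6.02 RPKM and Rad51d at 3.98, 3.75 and 3.15 RPKM. Xrcc2 was the lowest of all 36 members, at 3.03, 2.23 and 3.69 RPKM. It fell short of Xrcc3 in every library, the mean difference being -1.91 ± 0.33 on the log2 scale, or 3.76-fold lower (exact sign-flip p = 0.25). Rad51c exceeded Rad51d by 0.60 ± 0.22, with 1 sign in all 3 libraries (exact sign-flip p = 0.25). By read count the order of this pair was the opposite, with 225, 181 and 572 counts of Rad51c against 349, 317 and 717 of Rad51d. The deposited lengths are 2954 and 7062 bases, so the difference rests on the length used.

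In the rest of that set, the annealing protein gene Rad52 stood at 14.4, 13.8 and 12.7 RPKM and varied little. Rad54l, the translocase that drives strand invasion, stood at 14.8, 11 and 17.4 RPKM, and its relative Rad54b at 8.33, 6.57 and 9.76 RPKM. Both had the order replicate 3, then 1, then 2. The difference between them held its size across libraries, at 0.80, 0.70 and 0.81 on the log2 scale (mean 0.77 ± 0.06, 1.70-fold, exact sign-flip p = 0.25).

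Joined molecules are taken apart by dissolution or by cutting. The dissolution complex was close to even: the helicase gene Blm had 10.5, 10.7 and 11.7 RPKM, its topoisomerase partner Top3a 12.7, 13.1 and 13.9 RPKM and the scaffold Rmi1 14.5, 14.0 and 15 RPKM. Blm minus Top3a was -0.26 ± 0.02 on the log2 scale, the smallest SD of the 9 planned differences (exact sign-flip p = 0.25). By read count the order was the opposite, with 643, 636 and 1867 counts of Blm against 588, 585 and 1674 of Top3a. The deposited lengths are 4946 and 3740 bases, so the sign rests on the length used, whatever the SD. The nuclease scaffold Slx4 led the set at 19.8, 18.9 and 21.5 RPKM. The nuclease pair Eme1 and Mus81 had 17.5, 15.5 and 18.6 RPKM and 13.6, 15.6 and 13.1 RPKM. Eme1 was the higher in replicates 1 and 3 but not in replicate 2. In replicate 2 Eme1 had 413 counts against 373 of Mus81. The sign there rests on the deposited lengths of 2228 and 1993 bases. The mean difference of 0.28 ± 0.26 was about as large as its SD (exact sign-flip p = 0.5).

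**Figure D2:**
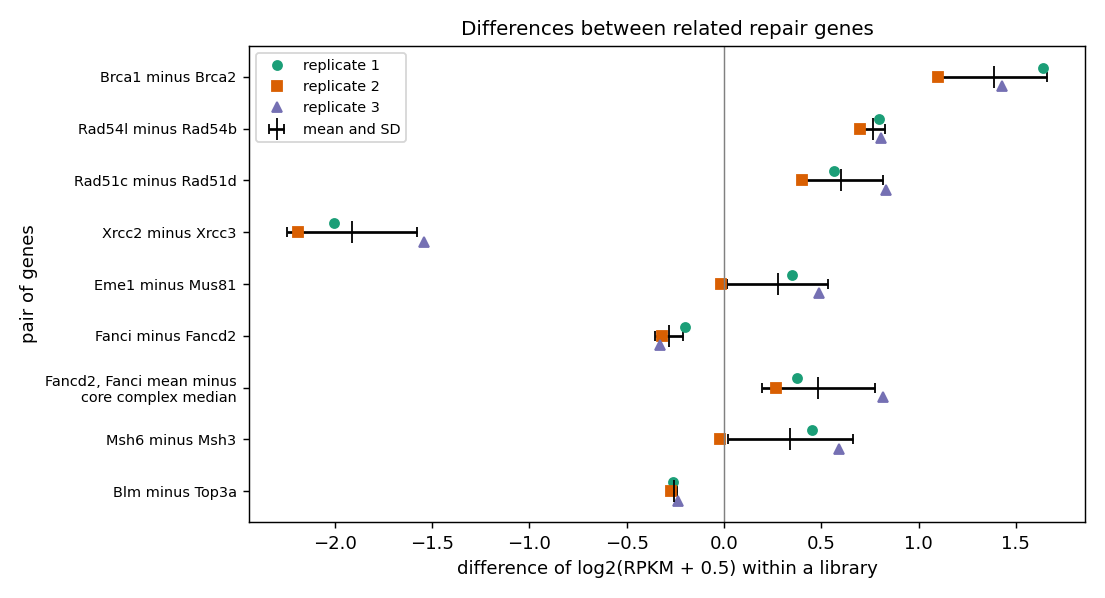
Difference of log2(RPKM + 0.5) between related genes within each library; symbols are the libraries, the tick and bar the mean and SD (n = 3), and the vertical line is 0. Eme1 minus Mus81 and Msh6 minus Msh3 lie on both sides of 0, and the other 7 differences keep 1 sign.

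The Fanconi core complex is a ubiquitin ligase, and its 8 members here spanned 3.23 to 14.7 RPKM. Fancg, with 16.3, 12.9 and 15.1 RPKM, Fanca, with 13.9, 10.3 and 14.2 RPKM, and Fancl, the catalytic ligase subunit, with 12.7, 12.6 and 12.1 RPKM, were the highest. Fance followed at 9.79, 9.89 and 8.52 RPKM and Fancc at 5.97, 5.29 and 5.35 RPKM. The lowest were Fancm, the translocase that anchors the complex on DNA (4.30, 3.80 and 5.79 RPKM), Fancf (4.38, 3.50 and 4.02 RPKM) and the X-linked Fancb (3.00, 2.85 and 3.84 RPKM). Replicate 3 was the highest library for Fanca, Fancm and Fancb, and the lowest for Fance and Fancl.

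The ID complex is the substrate of that ligase. Fancd2 had 10.8, 9.92 and 14.4 RPKM and Fanci 9.36, 7.84 and 11.3 RPKM, with Fanci the lower in every library (Fanci minus Fancd2 -0.28 ± 0.07 on the log2 scale, exact sign-flip p = 0.25). The mean of the pair exceeded the median of the core complex by 0.37, 0.27 and 0.82 in replicates 1, 2 and 3 (mean 0.49 ± 0.29, exact sign-flip p = 0.25). The helicase gene Brip1 stood at 7.89, 6.42 and 9.14 RPKM. Usp1, the enzyme that removes ubiquitin from the ID complex and from PCNA, had the highest level of all 36 members, at 46.0, 44.3 and 58.0 RPKM. Each of these 4 genes was highest in replicate 3 and lowest in replicate 2.

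Msh6 and Msh3, of the 3 mismatch repair genes, ranked next after Usp1 among the 36. Msh6, which reads single mismatches, had 35.3, 33.7 and 46.6 RPKM. Msh3, which reads longer loops, had 25.6, 34.2 and 30.8 RPKM, highest in replicate 2. Msh6 exceeded Msh3 by 0.45 and 0.59 in replicates 1 and 3, but by -0.02 in replicate 2. In replicate 2 Msh6 had 1720 counts against 1617 of Msh3. The sign there rests on the deposited lengths of 4263 and 3945 bases. The mean of 0.34 ± 0.32 was not separated from its spread (exact sign-flip p = 0.5). Pms2, the endonuclease subunit, stood at 12.4, 12.8 and 11.9 RPKM. Of the remaining members, Rad18, the ligase that marks PCNA for damage tolerance, stood at 9.99, 10.2 and 12.1 RPKM. Polq, the polymerase of theta end joining, stood at 6.35, 5.04 and 7.39 RPKM.

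The spread between libraries was then tested. For 25 of the 36 members the counts varied over the libraries beyond what Poisson sampling allows (adjusted p under 0.05, chi-square test over 12147 genes), against 54.5% of all genes tested. Msh6 (adjusted p = 4.92e-45, chi-square), Usp1 (2.34e-33) and Fancd2 (5.20e-18) had the smallest values, and they are also among the members with many counts. The 11 members not called included Palb2 (adjusted p = 0.919, chi-square), Fancl (0.809), Pms2 (0.447), Fancf (0.444) and Rmi1 (0.401). Fancf has few counts and its libraries differed 1.25-fold, so the lack of a call there does not show a steady level. The ratio of the highest to the lowest library was small throughout, with a median of 1.26-fold and a maximum of 1.65-fold, in Xrcc2. The number of members beyond Poisson noise was 23, 17 and 10 without replicates 1, 2 and 3. Over all genes the number was 6623, and 5593, 4252 and 3141 without them. Replicate 3 is the deepest library, so leaving it out removes the most reads.

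Those 10 of the 36 are members whose reads differed between replicates 1 and 2 beyond counting noise. Their share is close to the 25.7% of the genes tested for that pair. With 1 library on each side this compares those libraries only, and has no estimate of the spread between samples. By sex-linked RNA replicate 1 is female and replicate 2 male. Rad54l, Rad54b, Fanca, Fancg, Fanci, Brip1, Polq and Bard1 were higher in replicate 1, by 1.19-fold (Fanci) to 1.35-fold (Fanca and Rad54l). Brca2 and Msh3 went the other way, with replicate 1 at 0.726-fold and 0.749-fold of replicate 2.

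**Figure D3:**
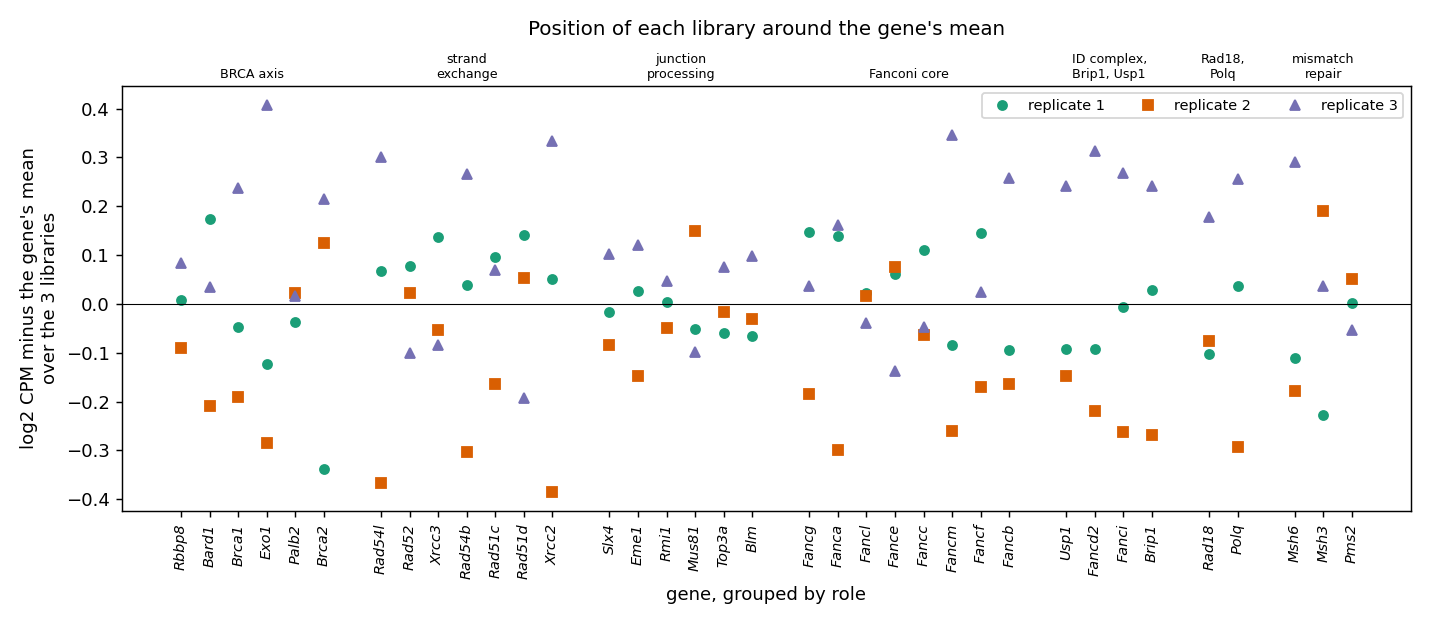
log2 CPM of each gene in each library minus the gene's mean over the 3 libraries, by role. Triangles (replicate 3) are the highest symbol for 22 of 36 genes and squares (replicate 2) the lowest for 23. Over all genes tested 35.0% were highest in replicate 3 and 36.4% lowest in replicate 2. Brca2 and Msh3 are lowest in replicate 1.

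The libraries had a common order for many members. On the log2 CPM scale 18 of 36 were highest in replicate 3 and lowest in replicate 2, an order found in 21.9% of all genes tested. By role these were all 4 genes of the ID complex set with Brip1 and Usp1, 3 of 6 in the BRCA axis, 3 of 7 in the strand exchange set, 3 of 6 in junction processing, 3 of 8 in the core complex, Polq and Msh6. The opposite order, highest in replicate 2 and lowest in replicate 3, was found in Mus81, Fance and Pms2, and in 22.0% of genes tested. The cell cycle lists had the first order in 22 of 28 replication genes and in all 16 mitosis genes. That order was picked because earlier results for cell cycle lists had it, so these counts give no separate support. The V(D)J recombination and end joining genes had it in 0 of 12, and summed to 1067, 1137 and 884 RPKM. In bulk RNA fewer cells of a type and less RNA per cell cannot be told apart. Neutrophil, monocyte and macrophage, and immediate early markers were also highest in sum in replicate 3. The part of any of these in the order of the repair genes was not tested.

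Replicate 3, the CASAVA 1.8.0 library, was set against replicates 1 and 2 in edgeR's quasi-likelihood test. Version, depth and library cannot be told apart here. Replicate 3 is alone on its side, so the spread in this test comes only from replicates 1 and 2, which differ in sex-linked RNA, and replicate 3 is assumed to vary like them. The neutrophil sum and the monocyte and macrophage sum given above were also highest in replicate 3. No member passed, with the smallest adjusted p at 0.337 (Exo1 and Msh6, edgeR), and 0.0741% of genes tested did. At an unadjusted p under 0.05 there were 9 members, all higher in replicate 3, where 5.01% of genes tested were. They were Exo1, Msh6, Fancd2, Fancm, Usp1, Brca1, Fanci, Polq and Rad54l. DESeq2 called 0 members and 36 genes in all, with 5 members and 458 of 12147 genes, in either direction, at an unadjusted p under 0.05.

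Among those 9 members the largest differences were 0.61 ± 0.16 for Exo1, 0.52 ± 0.15 for Fancm, 0.47 ± 0.13 for Fancd2 and 0.44 ± 0.12 for Msh6 (log2, fitted standard error). Xrcc2, with few counts, had 0.49 ± 0.25 and an unadjusted p above 0.05. The most negative of all members was Rad51d at -0.29 ± 0.16. The median over the 36 members was 0.15, and 28 were above 0, against a median of -0.01 over all genes tested, of which 5909 of 12147 were above 0. Set against replicate 2 alone (without replicate 1) the members' median was 0.23, and against replicate 1 alone 0.13. By role the median was 0.38 for the ID complex set, 0.32 for Rad18 and Polq, 0.21 for the BRCA axis, 0.13 for junction processing, 0.10 for the strand exchange set, and 0.04 for both the core complex and mismatch repair. The medians of the replication and mitosis lists were 0.30 and 0.33, and that of the V(D)J and end joining list was -0.16. Neutrophil markers had 0.59 and pre-B markers -0.13.

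**Figure D4:**
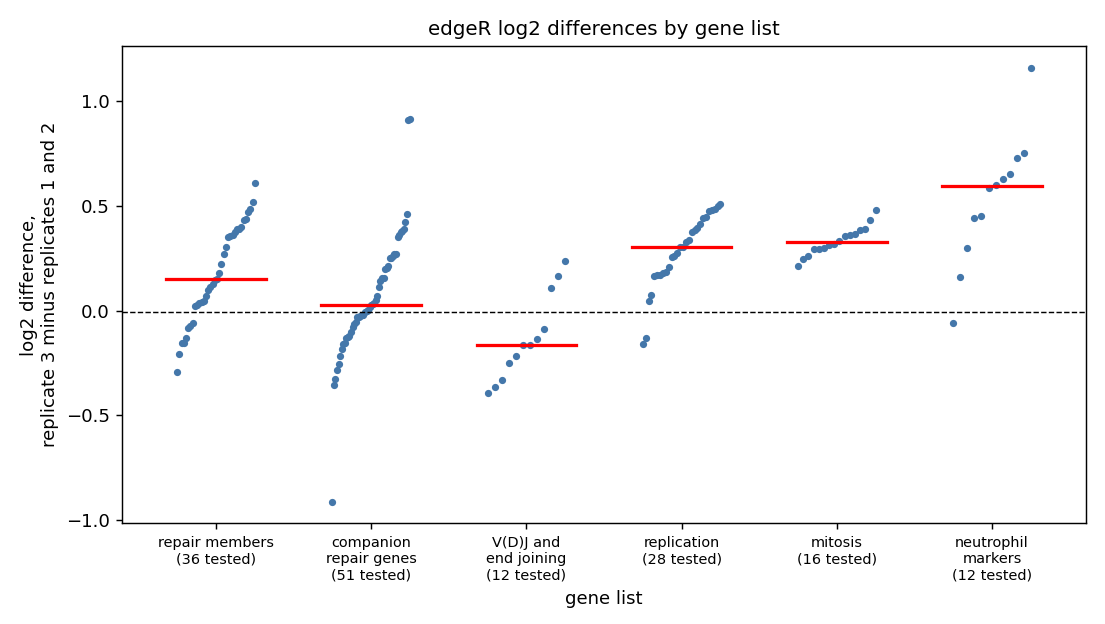
edgeR log2 difference of replicate 3 minus replicates 1 and 2 for each gene (points, in rising order within a list), with the list median (red line) and the median of all genes tested (dashed line). The 36 repair genes have a median of 0.15, the replication and mitosis lists 0.30 and 0.33, and the V(D)J and end joining list -0.16.

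Other genes of these pathways came from a list of 52 companion repair genes. Of them 49 exceeded 1 RPKM in every library, and their median of 13.6 RPKM was close to that of the members. The highest were Shfm1, a small acidic partner of BRCA2, at 156 ± 10.9 RPKM, the break sensor Parp1 at 129 ± 2.48 RPKM, and the recombination accessory gene Swi5 at 80.8 ± 9.36 RPKM with the repair scaffold Xrcc1 at 75.4 ± 5.72 RPKM. The lowest were Msh4, a meiotic gene listed with a count in replicate 3 only (0.009 RPKM), and the crosslink nuclease Dclre1a at 0.332 ± 0.059 RPKM. In the edgeR contrast 0 of the 51 tested passed in either direction, and 7 were higher and 2 lower at an unadjusted p under 0.05. Their median difference was 0.03, and 16 of 51 had the order replicate 3, then 1, then 2.

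Promoter windows were read for what the members share beyond their names. RefSeq windows on GRCm38.p6, from 250 bases before to 50 after a gene's start, were found for 28 of the 36. The words searched on either strand were the E2F-type TTTCCCGC, TTTGGCGC, TTTCGCGC and TTTGCCGC, after the factors that time S phase genes, together with CCAAT and the mitotic CHR words TTTGAA and TTTCGAA. An E2F-type word was present in 7 of the 28 (25.0%), against 2.60% of the 27025 genes with a window and 4.96% of the tested genes with one. The share was 54.5% for 22 replication genes, 7.14% for 14 mitosis genes, 11.9% for 42 companion repair genes and 1 of 10 for V(D)J and end joining genes. CCAAT was in 57.1% of the members, 41.1% of all genes and 43.9% of tested genes. A CHR word was in 10.7% of the members, 20.9% of all genes, 15.4% of tested genes and 71.4% of the mitosis genes. A gene with several windows counts once if any of them holds the word.

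The 7 members were Bard1, Brca2, Fancg, Msh3, Msh6, Rad51c and Rmi1. Of them 2 had the order replicate 3, then 1, then 2, as did 10 of the 21 members whose windows lack the word. These 3 windows are shown since their genes took different orders over the libraries while each holds an E2F-type word, in capitals; all read 5′ to 3′ on the gene's strand. Msh6 (chr17:87974800-87975099, plus strand) was highest in replicate 3, Brca2 (chr5:150522371-150522670, plus strand) was lowest in replicate 1, and Bard1 (chr1:71102923-71103222, minus strand) was highest in replicate 1. In the Brca2 window the word lies on the other strand.
Msh6: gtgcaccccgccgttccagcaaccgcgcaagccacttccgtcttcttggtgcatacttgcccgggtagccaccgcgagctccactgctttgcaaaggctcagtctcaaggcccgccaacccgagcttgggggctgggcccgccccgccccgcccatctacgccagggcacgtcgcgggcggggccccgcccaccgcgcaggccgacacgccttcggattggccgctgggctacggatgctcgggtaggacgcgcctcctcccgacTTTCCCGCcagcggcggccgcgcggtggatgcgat
Brca2: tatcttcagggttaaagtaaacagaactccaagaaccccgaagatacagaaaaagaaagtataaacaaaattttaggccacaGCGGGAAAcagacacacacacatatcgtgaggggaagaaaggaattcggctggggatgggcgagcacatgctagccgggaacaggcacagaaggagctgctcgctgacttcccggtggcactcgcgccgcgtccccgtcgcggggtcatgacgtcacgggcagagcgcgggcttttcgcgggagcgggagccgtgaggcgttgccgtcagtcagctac
Bard1: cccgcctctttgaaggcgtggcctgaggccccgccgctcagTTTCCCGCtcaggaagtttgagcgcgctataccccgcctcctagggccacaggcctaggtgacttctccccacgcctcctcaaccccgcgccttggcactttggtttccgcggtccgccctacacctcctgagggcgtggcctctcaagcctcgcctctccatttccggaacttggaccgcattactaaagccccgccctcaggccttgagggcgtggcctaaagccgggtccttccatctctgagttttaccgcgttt

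Reads shared with other genes limit some of these levels. By their GRCm38.p6 spans 14 members overlap another gene of the table, among them Fanci with Polg, Msh6 with Fbxo11, and Fanca with Zfp276. Whether the counting used strand is not stated, so reads of such pairs cannot always be told apart. The order replicate 3, then 1, then 2 was found in 9 of these 14 members and in 9 of the 22 with no overlapping gene, and counts beyond Poisson noise (chi-square) in 9 and 16.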

How the data were processed

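Sorted pre-B cells of 1 group gave 3 RNA-seq libraries. The authors deposited whole-number read counts for each Entrez gene, beside a gene length in bases, summarised with featureCounts on mm9, per the submitters' processing notes. CASAVA was version 1.8.0 for replicate 3 and 1.8.2 for the others, per the labels. Not given in the sources used here: aligner, annotation, strand setting and other versions. The 3 sample files equal the series table. Symbols came from a RefSeq table of GRCm38.p6, which matched 24176 of 26286 identifiers and all 36 members. The files use another build, so the only coordinates printed are those of RefSeq promoter windows, on GRCm38.p6.

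TMM scaling and RPKM were computed with edgeR 4.0.16 in R 4.3.3 from the deposited counts and lengths. Levels are on log2(RPKM + 0.5). log2 CPM, with a prior count of 2, sets the order of libraries. filterByExpr (minimum count 10, minimum total 15) kept 12147 genes. The chi-square test compares counts with the shares given by scaled library sizes, and the CASAVA contrast used glmQLFit and glmQLFTest. P-values were adjusted over all genes tested by Benjamini-Hochberg, with a threshold of 0.05. Standard errors are the fitted log2 difference over the root of the F statistic.

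On simulated counts of 12147 genes for the contrast of 1 library against 2, with 1 dispersion for all genes, edgeR recovered 99 of 100 genes changed 4-fold and 90 of 100 changed 2-fold, with 11 false calls. Changes below 2-fold were not simulated, and the members' libraries differed by at most 1.65-fold, so recovery at that size is not known. The chi-square test was run on separate counts drawn with Poisson noise only. It recovered 99 and 96 there, with 6 false calls, which does not show how it behaves where genes vary between samples. Alternatives were DESeq2 1.42.0, other scalings, pseudocounts and filters, TPM, thinning replicate 3 and leaving out replicates.

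The members, the lists and the tests were chosen with earlier results of these data known. All members may be named; of other lists, the 4 highest and 2 lowest. Genes overlapping or lying beside members, and the sex-linked genes, were named after their values were seen.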

Additional observations from a re-analysis of the deposited data

How the results depend on the processing

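The sign of all 9 planned differences held under every pseudocount (0.1 and 1), under TPM and without each replicate. Where the 3 libraries share 1 sign, none of these settings could have reversed it. Only Eme1 minus Mus81 and Msh6 minus Msh3 could have changed sign. All 36 members stayed at or above 1 RPKM, 2 RPKM or 1 TPM in every library. The members' median level on the log2 scale was 3.50 with RPKM and 4.71 with TPM, which is another unit. Without replicate 3 the members beyond Poisson noise numbered 10 in place of 25, and leaving out each replicate gave 10 to 23. Over all genes the same count was 6623, with 5593, 4252 and 3141 without replicates 1, 2 and 3. Thinning replicate 3 to the smallest total gave 21 members and 5629 genes beyond Poisson noise, and 19 members in place of 18 with the order replicate 3, then 1, then 2. The count was 18 with DESeq2 size factors or no scaling. Members called in the CASAVA contrast were 0 under every alternative run, whereas the genes called were 9 with edgeR, 36 with DESeq2, 23 with no scaling, and 0 with all genes with a count or with replicate 3 thinned (the cause was not tested). The members' median difference in that contrast was 0.15, and 0.13 to 0.23 with replicate 1 or 2 left out. Those are values with no test, since 1 library against 1 leaves no residual degrees of freedom, and without replicate 3 no contrast remains. Members of few counts have wide counting intervals: Fancf, with 71 counts in replicate 2, lay between 2.74 and 4.42 RPKM there.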

Other observations

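Some members start head to head with another gene, within 1000 bases on the opposite strand in the RefSeq windows. This held for 11 members, and 9 of the pairs have both genes in the count table. Of these 9 members 4 were highest in replicate 3, and 1 of their 9 neighbours was, where 35.0% of all genes tested were. Brca1 starts 150 bases from a start of Nbr1, an autophagy receptor gene, which stood at 45.8, 49.2 and 44.6 RPKM in replicates 1, 2 and 3, lowest in the library where Brca1 was highest. Rmi1 lies 129 bases from a start of Hnrnpk, an RNA-binding protein gene, at 160 RPKM in replicates 1 and 2 and 153 RPKM in replicate 3. Rad51c, at 5.75 ± 0.56 RPKM (SD, n = 3), lies 109 bases from a start of the testis gene Tex14, which had 12, 15 and 19 counts, or 0.203, 0.263 and 0.124 RPKM. Eme1 and Mrpl27, a mitochondrial ribosomal protein gene with its start 46 bases from that of Eme1, stood at 17.2 and 19.1 RPKM in the mean. By span Eme1 overlaps Mrpl27 and Rmi1 overlaps Hnrnpk, so their reads cannot always be told apart. All pairs named here were picked after their values were seen, and no test was made of them.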
